A study of Mus musculus with 6 samples.

Results

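The genes described here encode the chains of the mouse major histocompatibility complex (MHC) class II pathway and its transcriptional coactivator: Cd74 (the invariant chain), H2-Aa, H2-Ab1, H2-Eb1, H2-DMa and Ciita. They were taken by name, as every probe set that the platform annotation assigns to one of these symbols and to no other. This rule used no measured value, but the genes were chosen with earlier results of these data known. The 6 genes, of 12393 symbols in the annotation, had 10 probe sets. Of these, 7 probe sets of 5 genes were bright enough to be tested, and the other 3 (both of Ciita and 1 of H2-Ab1) were not. Transcript levels were measured on 1-colour Affymetrix arrays in mouse multiple myeloma cells from bone marrow, labelled as malignant plasma cells. Control cells (3 arrays) were kept for 12 h in medium without serum and without insulin-like growth factor 1 (IGF-1), and treated cells (3 arrays) for 12 h in the same serum-free medium with IGF-1 at 100 ng/ml. The labels name neither a mouse strain nor a cell line, and give no genotype or age. Nothing in them tells if the 3 arrays of a group came from independent cultures or mice. The p-values therefore measure only the spread among the 6 RNA samples, part or all of which may be technical.

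As background, class II molecules are pairs of an alpha and a beta chain that display peptides from endocytosed proteins to CD4+ T cells. The invariant chain, CD74, guides newly made pairs to the endosome and blocks their groove until proteases cut it away, and H2-DM then exchanges the remaining fragment for peptide. CIITA, recruited by the RFX and NF-Y complexes at the X and Y boxes of these promoters, controls transcription of the whole set, and Prdm1 (Blimp-1) silences Ciita as B cells become plasma cells, which normally carry little class II. B cells, dendritic cells and activated macrophages express the set strongly, so RNA from such cells in a bulk sample carries the same transcripts. In bulk samples, fewer cells of a type and less RNA per cell cannot be told apart.

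The promoters of 2 members are shown because they carry the boxes at which CIITA acts. The brightest H2-Aa probe set was called below, whereas the other H2-Aa probe set and that of H2-Eb1 were not. The difference between the 2 genes was not tested. Promoter windows from 250 bases before to 50 bases after the annotated start were read from a RefSeq table (GRCm38.p6). It had windows for 3 member genes, with 2 windows for H2-DMa, whereas Cd74, H2-Ab1 and Ciita had no entry. H2-Aa lies on the minus strand at chr17:34287774-34288073 and H2-Eb1 on the plus strand at chr17:34305617-34305916. Both sequences are printed 5′ to 3′ in the direction of transcription, with the X box core GCAAC and, after it, the Y box core ATTGG in capitals.
H2-Aa: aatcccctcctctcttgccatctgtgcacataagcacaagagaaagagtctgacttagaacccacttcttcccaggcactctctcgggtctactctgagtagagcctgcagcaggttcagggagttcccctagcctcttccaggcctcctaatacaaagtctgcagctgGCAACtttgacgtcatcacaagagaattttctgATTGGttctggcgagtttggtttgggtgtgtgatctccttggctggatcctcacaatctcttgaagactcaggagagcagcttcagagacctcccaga
H2-Eb1: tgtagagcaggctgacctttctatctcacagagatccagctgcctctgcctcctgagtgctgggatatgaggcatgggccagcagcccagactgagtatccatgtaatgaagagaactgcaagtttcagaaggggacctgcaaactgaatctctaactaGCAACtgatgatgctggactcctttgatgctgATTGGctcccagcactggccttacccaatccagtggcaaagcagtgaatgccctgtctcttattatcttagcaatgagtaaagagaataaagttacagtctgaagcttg

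In H2-Aa the X core began 81 bases and the Y core 48 bases before the start, a spacing of 33 bases. In H2-Eb1 they began 91 and 59 bases before it, 32 bases apart. The letters and the spacing were chosen after these sequences had been seen. Searched on both strands of all 32851 windows of 300 bases, GCAAC was found in 35.2% and ATTGG in 37.4%, and the 2 motifs did not overlap in the pairs counted here. The ordered pair, ATTGG starting 25 to 40 bases after GCAAC in the direction of transcription, was found in 128 windows, which is 0.39%. Of 8 class II genes with a window, 5 held such a pair: H2-Aa, H2-Eb1, H2-Eb2, H2-Oa and H2-Ob. Neither window of H2-DMa, nor those of H2-DMb1 and H2-DMb2, held it in these letters. A match in these letters is a description of the sequence and not evidence of binding.

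**Figure D1:**
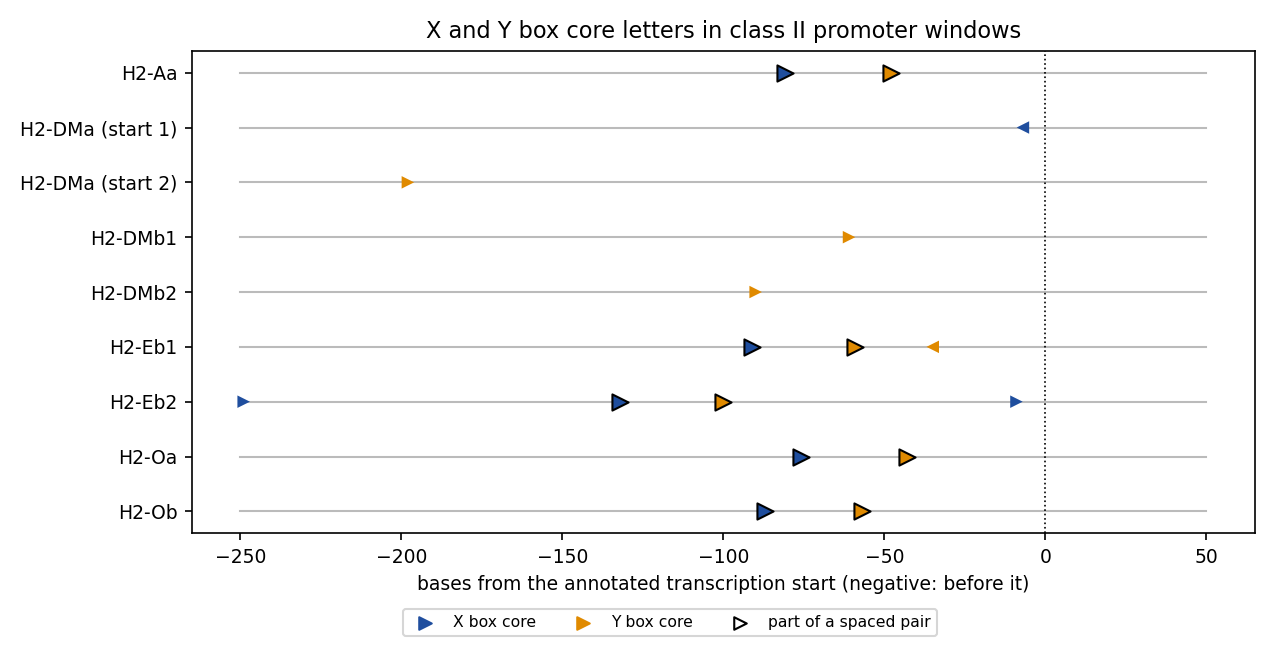
Positions of the X box core (blue) and Y box core (orange) in the promoter windows of class II genes, in bases from the annotated start (horizontal axis, negative before the start). Triangles point in the direction of transcription for the forward strand and against it for the reverse strand, and black outlines mark the pairs. The pairs of H2-Aa and H2-Eb1 sit at 81 and 48 and at 91 and 59 bases before the start.

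Signals are linear MAS5 values, scaled by the authors so that each array has the same trimmed mean, and 1 signal was given per probe set. Differences are IGF-1 minus control on the scale log2(signal + 15.6), where the added constant is the 25th percentile of all signals and makes changes of dim probe sets look smaller. Probe sets with a mean signal above 53.6, the median over all probe sets, were tested, and a probe set was called when the adjusted p of limma (Benjamini-Hochberg over 11313 probe sets) was under 0.05. The brightest tested probe set stands for its gene. Array medians lay between 49.96 and 55.4, and precision is limited by having 3 arrays a group. Arrays of the same group correlated at 0.978 to 0.984 (Pearson, log2 scale) and arrays of different groups at 0.956 to 0.965.

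Cd74 rose with IGF-1 and H2-Aa fell. The other 3 tested members, H2-Ab1, H2-Eb1 and H2-DMa, did not pass the test. Of the 5 tested member genes, 1 was therefore called higher, against 7.05% of the 6895 genes tested, and 1 was called lower, against 8.05%. Their median log2 difference was -0.11, beside -0.01 over all genes tested. With so few members these shares do not set the group apart from the other genes. By probe set, 1 of the 7 tested was called higher (6.82% of all probe sets) and 1 lower (8.28%).

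**Figure D2:**
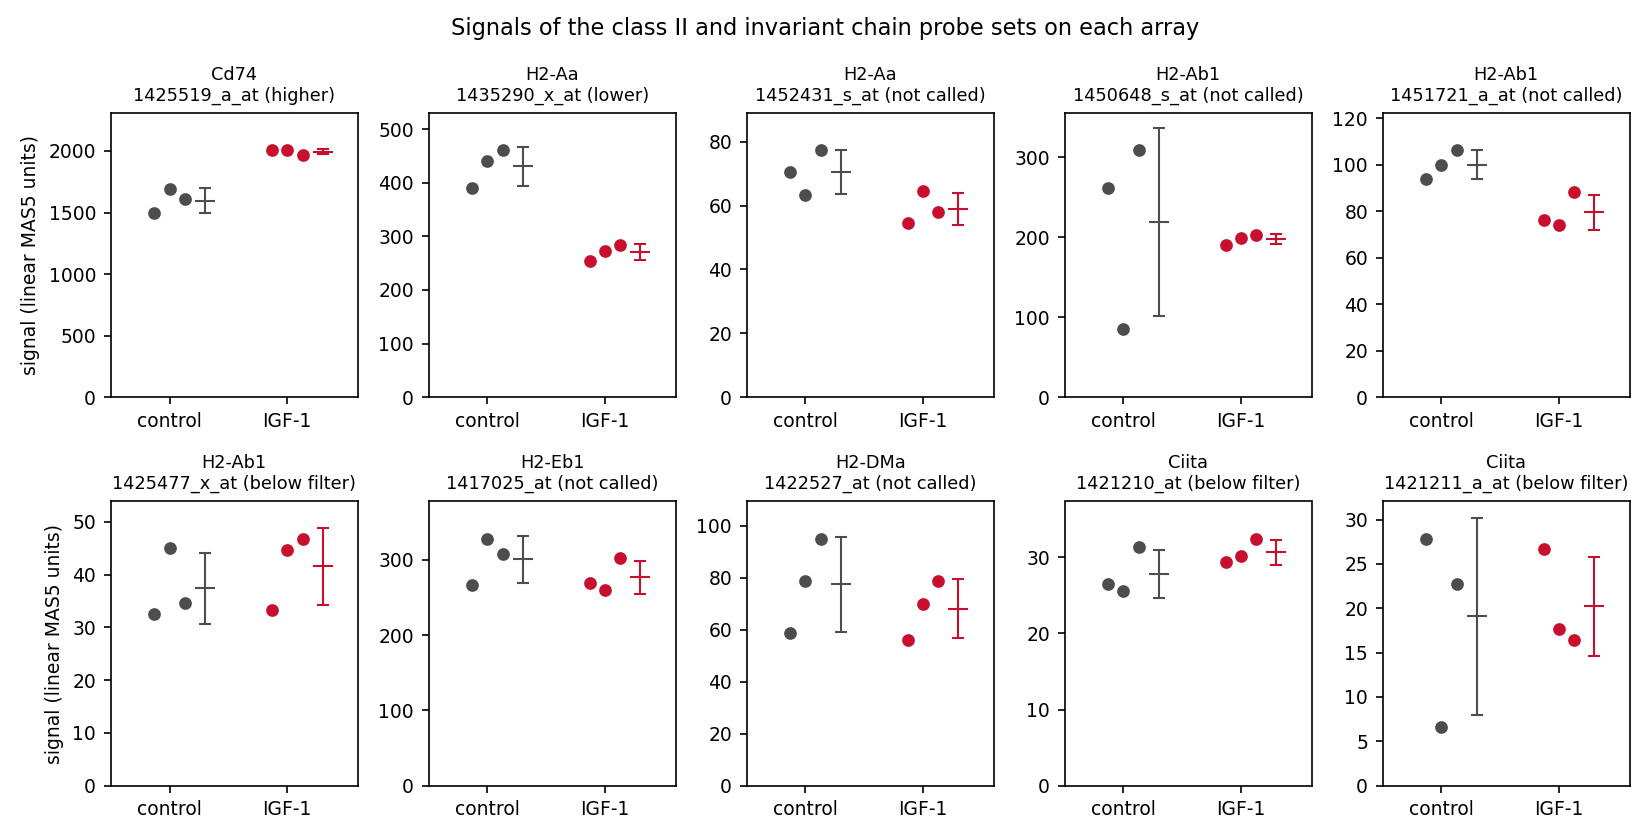
Signal of each of the 10 member probe sets on each array, in linear MAS5 units (vertical axis of each panel, starting at 0). Points are single arrays (grey, control; red, IGF-1), and the bar beside them is the mean ± SD of 3 arrays. The groups lie apart for Cd74 (IGF-1 higher), for the brightest H2-Aa probe set and for 1 H2-Ab1 probe set (IGF-1 lower in both), and control replicate 2 stands apart in H2-Ab1 1450648_s_at.

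Cd74, which encodes the invariant chain and at the cell surface serves as the receptor of the cytokine MIF, had 1 probe set (1425519_a_at). Its signal was 1493, 1691 and 1607 in the control arrays and 2007, 2007 and 1971 in the IGF-1 arrays. Every IGF-1 array lay above every control array, and the IGF-1 arrays lay closer together than the controls. The mean went from 1597 ± 99.5 to 1995 ± 20.8 (SD, n = 3), a log2 difference of 0.32 ± 0.08 (SE; 95% interval 0.13 to 0.51), or 1.25-fold, with an adjusted p of 0.0293 by limma. The rise is small and its call rests on the settings. The log2 difference stayed between 0.26 and 0.56 over all alternatives, but the call was lost when any array except control replicate 2 was left out (limma adjusted p 0.0647 to 0.0988), without the signal filter (0.0606) and without the intensity trend (0.0659).

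H2-Aa encodes the alpha chain of the I-A molecule. Its brightest probe set (1435290_x_at) had signals of 391, 441 and 461 in the control arrays and 255, 274 and 285 in the IGF-1 arrays. The groups did not overlap, and the gap between the lowest control and the highest IGF-1 array was 106. The mean went from 431 ± 36.3 to 271 ± 15.1 (SD, n = 3), a fall of 1.56-fold (log2 difference -0.64 ± 0.10 SE, 95% interval -0.86 to -0.41, limma adjusted p 0.00363). The absolute change was larger than that of 94.9% of the genes tested. The call was kept with each of the 6 arrays left out, at adjusted p between 0.00539 and 0.0191, and was lost under scaling to the spiked hybridization controls (-0.41, limma adjusted p 0.065). Relative to the median gene, which that scaling moved to 0.21, the H2-Aa difference was -0.62, beside -0.63 under the deposited scaling. The scaling multiplies each array by 1 factor, and subtracting the median largely undoes it. Near-equal values were therefore fixed in advance for any bright gene, and they lend the fall no support.

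A second H2-Aa probe set (1452431_s_at) had signals of 70.7, 63.4 and 77.4 in the control arrays and 54.6, 64.5 and 58.0 in the IGF-1 arrays. The highest IGF-1 array lay above the lowest control array, so the groups overlapped. Its log2 difference was -0.21 ± 0.14 (SE), which did not pass the test (limma adjusted p 0.368). The suffixes of both H2-Aa probe sets mark, in Affymetrix naming, probes that can match more than 1 transcript, so signal from related class II sequences cannot be told apart from that of H2-Aa. Averaged over its 2 tested probe sets, the H2-Aa difference was -0.42 (limma adjusted p 0.0157).

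Cd74 and H2-Aa moved in opposite directions, and the difference of their plain log2 signals within an array (no constant added) does not change with the factor by which that array was scaled. The level of that difference has no meaning across probe sets, but its change between groups does. Log2 Cd74 signal minus log2 H2-Aa signal was 1.93, 1.94 and 1.80 in the control arrays and 2.98, 2.87 and 2.79 in the IGF-1 arrays. All 3 IGF-1 arrays lay above all 3 controls. The group means were 1.89 ± 0.08 and 2.88 ± 0.09 (SD, n = 3), 0.99 apart. These 2 genes were picked here for their calls, so the value is given with no test.

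H2-Ab1 encodes the beta chain that pairs with H2-Aa, and it gave no settled result. Its brightest probe set (1450648_s_at) had signals of 261, 85.7 and 309 in the control arrays and 190, 198 and 203 in the IGF-1 arrays. Control replicate 2 lay far below every other array, while the other controls lay above all IGF-1 arrays. The means were 219 ± 118 and 197 ± 6.39 (SD, n = 3), and the log2 difference of 0.03 ± 0.34 (SE; 95% interval -0.73 to 0.78) had a limma adjusted p of 0.968. The result turned on that 1 array. Without control replicate 2 the log2 difference was -0.49 with a limma adjusted p of 0.0392, a call in the other direction.

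The next H2-Ab1 probe set (1451721_a_at) had signals of 93.9, 100.2 and 106 in the control arrays and 76.5, 74.1 and 88.2 in the IGF-1 arrays. Here control replicate 2 lay between the other controls, and the groups did not overlap, with a gap of 5.73. The log2 difference of -0.28 ± 0.13 (SE) did not pass the test (limma adjusted p 0.157). The third (1425477_x_at) was below the signal filter, with signals of 32.5, 45.1 and 34.6 in the control arrays and 33.2, 44.6 and 46.8 in the IGF-1 arrays, which overlapped. Averaged over both tested probe sets, the H2-Ab1 difference was -0.13 (limma adjusted p 0.7).

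H2-Eb1 encodes the beta chain of the I-E molecule. Its probe set (1417025_at) had signals of 267, 328 and 308 in the control arrays and 269, 259.9 and 302 in the IGF-1 arrays. The groups overlapped over most of their range. The means were 301 ± 31.2 and 277 ± 22.1 (SD, n = 3), with a log2 difference of -0.11 ± 0.11 (SE; 95% interval -0.36 to 0.13; limma adjusted p 0.546). The interval does not include a fall as large as that of the brightest H2-Aa probe set, but it includes that of the second (-0.21). The difference between the 2 genes was not tested, and the sign of the H2-Eb1 value turned under scaling to the hybridization controls (0.12).

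H2-DMa encodes the alpha chain of H2-DM, the molecule that edits the peptides held by class II. Its probe set (1422527_at) had signals of 58.7, 78.7 and 95.1 in the control arrays and 56.0, 69.8 and 78.6 in the IGF-1 arrays. Both groups were widely spread and overlapped. The log2 difference was -0.14 ± 0.18 (SE; 95% interval -0.54 to 0.25; limma adjusted p 0.635), and its sign also turned under scaling to the hybridization controls (0.05).

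Ciita, the coactivator that sets the level of the whole family, was below the signal filter in both of its probe sets, so no test was made. The signals of 1421210_at were 26.5, 25.5 and 31.4 in the control arrays and 29.3, 30.1 and 32.4 in the IGF-1 arrays. The signals of 1421211_a_at were 27.9, 6.64 and 22.8 in the control arrays and 26.7, 17.7 and 16.4 in the IGF-1 arrays. Both sets of values overlapped between groups, and a change in Ciita was not detectable at these signals.

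Among the tested member probe sets, every IGF-1 array lay above every control array for Cd74. Every IGF-1 array lay below every control for 1 probe set each of H2-Aa and H2-Ab1. The share of all probe sets with such a separation was not counted, so this does not set the members apart. The plot of differences places the members beside the other genes of the pathway.

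**Figure D3:**
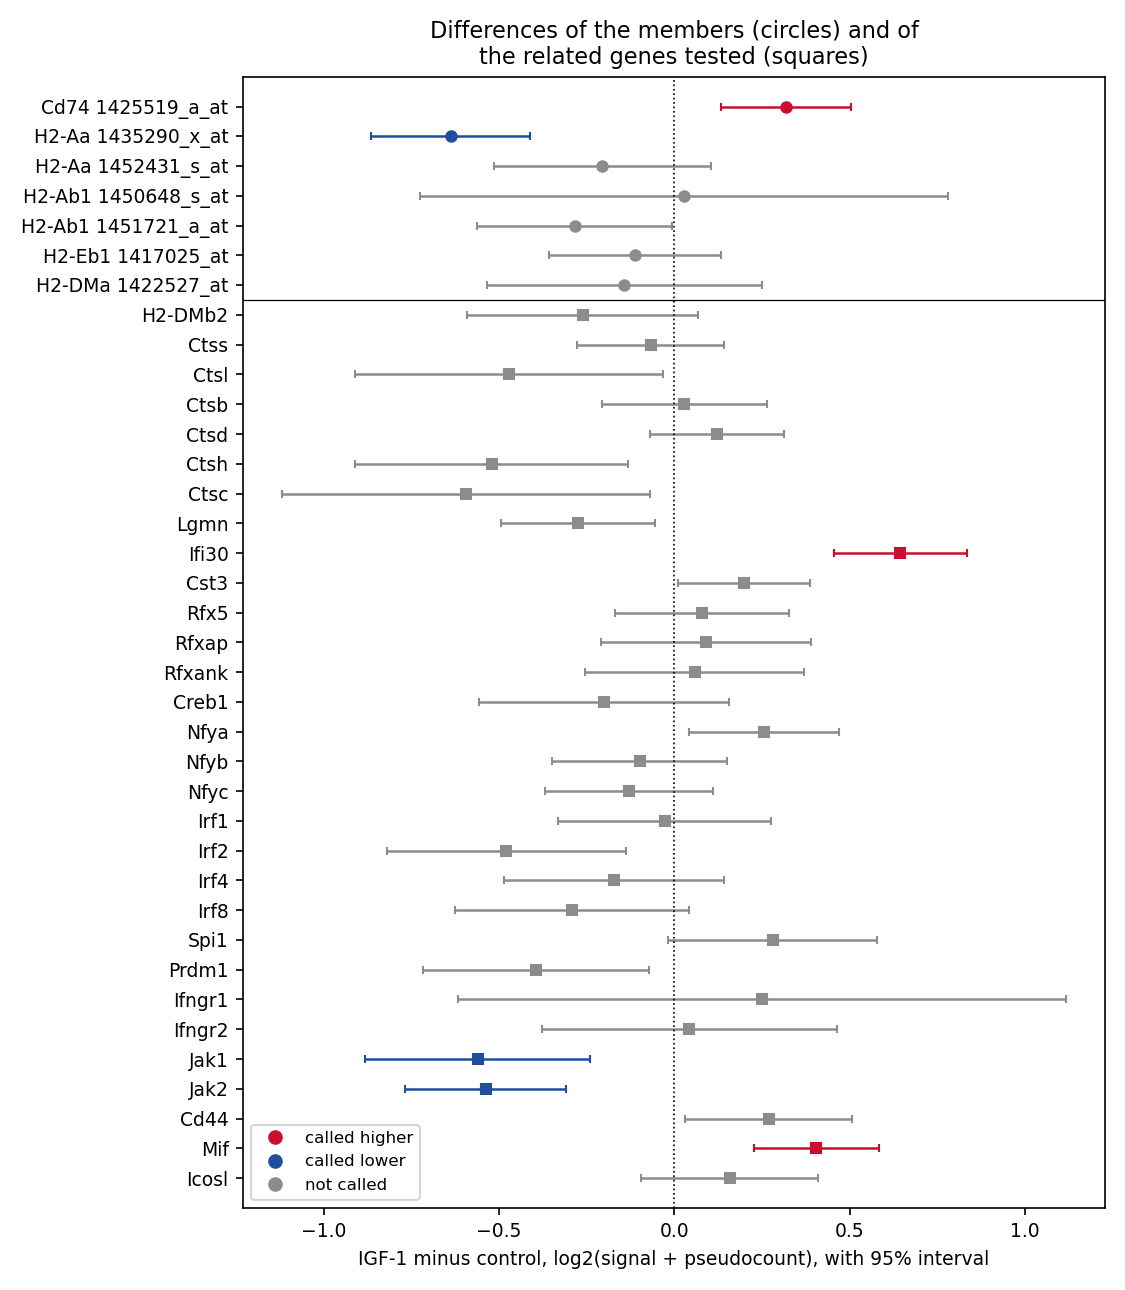
Differences between IGF-1 and control arrays (horizontal axis, IGF-1 minus control in log2(signal + pseudocount)) with 95% intervals from limma. Circles above the line are the 7 tested member probe sets, squares below it the tested genes of 5 related lists, each by its brightest probe set, in red where called higher, blue where called lower and grey where not called. Cd74, Ifi30 and Mif are called higher, and H2-Aa, Jak1 and Jak2 lower.

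The other class II chains were dim. Of 7 listed chains beside the members, 3 had a probe set under a symbol of their own and 1 was tested. H2-DMb2, a beta chain of H2-DM, had signals of 59.2, 63.2 and 60.6 in the control arrays and 41.8, 56.0 and 47.7 in the IGF-1 arrays. Every IGF-1 array lay below every control, but the log2 difference of -0.26 ± 0.15 (SE) did not pass the test (limma adjusted p 0.27). H2-Oa, a chain of the H2-DM inhibitor H2-O, and H2-Ea, the alpha chain of I-E, were below the filter.

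Among 9 genes that prepare peptides or cut the invariant chain, all were tested, 1 was called higher and 0 lower, with a median log2 difference of -0.07. The call was Ifi30, which encodes GILT, the lysosomal reductase that opens disulfide bonds of antigens before class II loading. Its signal was 627, 628 and 597 in the control arrays and 923, 985 and 1016 in the IGF-1 arrays. The groups lay far apart compared with their own spread. The log2 difference was 0.65 ± 0.09 (SE; limma adjusted p 0.00143), and the call was kept under all alternatives in which it was tested. The proteases did not pass the test. Ctss (cathepsin S, which makes the last cut of the invariant chain) had a log2 difference of -0.07 ± 0.09 (SE). Ctsd and Ctsb, lysosomal cathepsins that degrade antigens, had log2 differences of 0.12 and 0.03.

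By their brightest probe sets, none of the factors that act on class II promoters or on Ciita was called by limma. Of 17 listed genes, 15 had a probe set under their own symbol and 13 were tested, with a median log2 difference of -0.10 and 5 of the 13 above 0. The subunits of RFX, which binds the X box, had log2 differences of 0.08 (Rfx5), 0.09 (Rfxap) and 0.06 (Rfxank). Among the brightest of the list, Irf4 (a plasma cell and B cell factor) had a log2 difference of -0.17 ± 0.14 and Irf1 (induced by interferon gamma) one of -0.03 ± 0.14, both with SE. A second, dimmer Irf4 probe set was called lower, from 209.7, 136 and 128 in the control arrays to 104, 77.8 and 84.0 in the IGF-1 arrays (log2 difference -0.71 ± 0.18 SE, limma adjusted p 0.0246). That call was lost without control replicate 1 (0.0542), without IGF-1 replicate 2 (0.0859) or replicate 3 (0.0679), without the filter (0.0843) and under scaling to the hybridization controls (0.0635). Spi1, the myeloid and B cell factor PU.1, had one of 0.28 ± 0.13 (SE; limma adjusted p 0.19). Prdm1, the repressor of Ciita, had signals of 325, 220.4 and 226 in the control arrays and 201, 190 and 176 in the IGF-1 arrays. The groups did not overlap, but control replicate 1 stood apart and the log2 difference of -0.39 ± 0.15 (SE) did not pass the test (limma adjusted p 0.0949). Prdm1 lies outside the genes to be named by rule and was chosen for its known role.

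The interferon gamma pathway is the best known inducer of Ciita outside B cells. Of its 7 listed genes, 6 had a probe set under their own symbol and 5 were tested, of which 2 were called lower and 0 higher by their brightest probe sets, with a median log2 difference of -0.03. Jak2, a kinase of the interferon gamma receptor and of several cytokine receptors, had signals of 262, 266 and 244 in the control arrays and 165, 188 and 165 in the IGF-1 arrays, without overlap. Its log2 difference was -0.54 ± 0.10 (SE; limma adjusted p 0.0082), and the call was lost under scaling to the hybridization controls (0.152). Jak1, the partner kinase, went from 514 ± 59.2 to 346 ± 66.0 (SD, n = 3), a log2 difference of -0.56 ± 0.14 (SE; limma adjusted p 0.0277). The Jak1 call was lost without control replicate 1 (limma adjusted p 0.0654), without control replicate 2 (0.102), without IGF-1 replicate 1 (0.0638), without the filter (0.0825) and under scaling to the hybridization controls (0.145). A second Jak2 probe set was also called lower (log2 difference -0.57 ± 0.13 SE, limma adjusted p 0.0181), a call lost without control replicate 2 or 3, IGF-1 replicate 2 or 3, or the filter (0.0525 to 0.0681) and under scaling to the hybridization controls (0.15). The other 2 probe sets of Jak1 were not called (0.103 and 0.833). The receptor subunit genes Ifngr1 and Ifngr2 had log2 differences of 0.25 ± 0.39 and 0.04 ± 0.19 (SE) by their brightest probe sets. The second Ifngr2 probe set was called higher, from 110.4, 85.3 and 111 in the control arrays to 132, 148 and 174 in the IGF-1 arrays (log2 difference 0.50 ± 0.14 SE, limma adjusted p 0.0374). Its call was lost without control replicate 2 or 3 or IGF-1 replicate 2 or 3 (0.0558 to 0.134), without the filter (0.097) and with the filter at the 25th percentile (0.0502). In Ifngr1, IGF-1 replicate 1 was at 76.8 while the other IGF-1 arrays were at 338 and 284, and the controls lay between.

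Of 11 listed genes of co-stimulation and class II turnover, 7 had a probe set under their own symbol and 3 were tested. The 1 call was Mif, the cytokine that binds CD74. Its signal was 3603, 3608 and 3669 in the control arrays and 4581, 4727 and 5134 in the IGF-1 arrays, with no overlap. The log2 difference was 0.41 ± 0.08 (SE; limma adjusted p 0.00957), and the call was kept under all alternatives in which it was tested. Cd44, the signalling partner of CD74, gave log2 differences of 0.27 and -0.27 in 2 probe sets, neither of which passed the test (limma adjusted p 0.119 and 0.0963). The co-stimulatory ligands and activation markers Cd80, Cd86, Cd40 and Cd83 were below the filter.

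The labelled cell type was set against marker genes. Plasma cell markers were well measured: 9 of 10 passed the filter, among them Sdc1 (syndecan-1, CD138), Xbp1 (the secretory program factor), Jchain and Irf4. Markers of other cells were measured too. All 11 neutrophil markers and 11 of 16 macrophage and monocyte markers passed the filter, against 2 of 11 for B cells, 2 of 10 for dendritic cells, 1 of 8 for T and NK cells and 2 of 4 for erythroid cells. No marker was at 0 on any array, but neither was any other probe set (lowest signals of the arrays 0.013 to 0.049). This therefore does not show that these cells were present. The defining B cell genes Ms4a1 (CD20), Cd79a, Pax5, Ebf1 and Cd22 were below the filter, as were the dendritic cell genes Itgax (CD11c), Flt3, Zbtb46, Xcr1, Batf3 and Ccr7. However, Cd79b of the B cell list was bright, at 944 ± 31.6 in control and 982 ± 45.7 in IGF-1 arrays (SD, n = 3). It was not called (limma adjusted p 0.71).

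Some marker lists differed in summed signal between the groups, in both directions, and the others overlapped. The summed signal of the dendritic cell markers was 583 to 610 in the control arrays and 427 to 568 in the IGF-1 arrays, and that of the macrophage and monocyte markers 6257 to 8473 and 5294 to 7267. The first did not overlap and the second did. The fall of the dendritic cell sum, of 108 between group means, lay mostly in Cd209a (99.2). Without that gene, which was picked after its values were seen, the sums overlapped, at 399 to 449 and 377 to 488. Of the 11 tested macrophage and monocyte markers, 5 were called lower and 1 higher, with a median log2 difference of -0.54. Csf1r, the receptor of macrophage colony-stimulating factor, had signals of 501, 642 and 869 in the control arrays and 265, 309.8 and 376 in the IGF-1 arrays (log2 difference -1.02 ± 0.18 SE, limma adjusted p 0.00594). That was its brightest probe set. Its other probe sets overlapped between groups and were not called, with log2 differences of -0.43 and 0.15 (limma adjusted p 0.0908 and 0.568). Cd209a, a dendritic cell lectin, had signals of 212, 177 and 135 in the control arrays and 50.6, 94.8 and 79.9 in the IGF-1 arrays (log2 difference -1.08 ± 0.20 SE, limma adjusted p 0.00744). Neither the brightest Csf1r probe set nor that of Cd209a overlapped between groups, and both calls were kept with each array left out. In contrast Cd68, a lysosomal protein of macrophages, rose (log2 difference 0.41 ± 0.09 SE, limma adjusted p 0.0118), although that call was lost without IGF-1 replicate 2 (0.0519). Ccr2, a monocyte chemokine receptor, and Mpeg1, a pore-forming protein of macrophages, fell by 0.70 and 0.71 on the log2 scale, but both calls were lost without control replicate 2, control replicate 3, IGF-1 replicate 1 or IGF-1 replicate 2 (limma adjusted p 0.0526 to 0.0642 and 0.101 to 0.109).

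The B cell markers summed to 1727 to 1813 in the control arrays and 2149 to 2338 in the IGF-1 arrays, without overlap. Of the difference of 489 between group means, 456 was that of Cd37. Without that gene, picked in the same way, the sums overlapped, at 1182 to 1303 and 1280 to 1298. The 1 call was Cd37, a tetraspanin, at 521 ± 26.1 in control and 977 ± 110 in IGF-1 arrays (SD, n = 3; log2 difference 0.88 ± 0.10 SE, limma adjusted p 0.000739), while its second tested probe set had a log2 difference of -0.39 that did not pass the test (0.0939). The plasma cell markers summed to 13669 to 14771 in the control arrays and 12834 to 13380 in the IGF-1 arrays, also without overlap. Without Xbp1, the gene of that list whose signal differed most, they overlapped (8773 to 9524 and 8431 to 9026). Of the 9 tested, 2 were called lower by their brightest probe sets: Tnfrsf17, the receptor BCMA (log2 difference -0.51 ± 0.10 SE), and Slamf7 (-0.62 ± 0.13 SE). The third brightest of 4 Xbp1 probe sets was called lower too (-0.63 ± 0.10 SE, limma adjusted p 0.00283). That call was kept with each array left out and lost under scaling to the hybridization controls (0.0555). The second Irf4 probe set, given above, was also called lower. Neutrophil markers overlapped, at 26349 to 31784 and 24153 to 27090, and 3 of 11 were called lower (Ltf, Mmp8 and Mmp9, which encode granule proteins). The Mmp8 and Mmp9 calls were lost with any of the same 4 arrays left out (limma adjusted p 0.0599 to 0.075), and that of Ltf without IGF-1 replicate 2 (0.0522). Without the filter the Mmp8 and Mmp9 calls were lost too (0.0782 and 0.066). A second Mmp9 probe set overlapped between groups and was not called (log2 difference -0.31, limma adjusted p 0.304). Scaling to the hybridization controls also ended the calls of Tnfrsf17, Slamf7, Ltf, Mmp9, Ccr2 and Mpeg1 (limma adjusted p 0.0526 to 0.206). T and NK cell markers (178 to 239 and 152 to 209.6) and erythroid markers (228 to 369 and 231 to 341) overlapped, with 0 calls by limma. The part that any of these cell types has in the fall of H2-Aa or the rise of Cd74 was not tested.

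**Figure D4:**
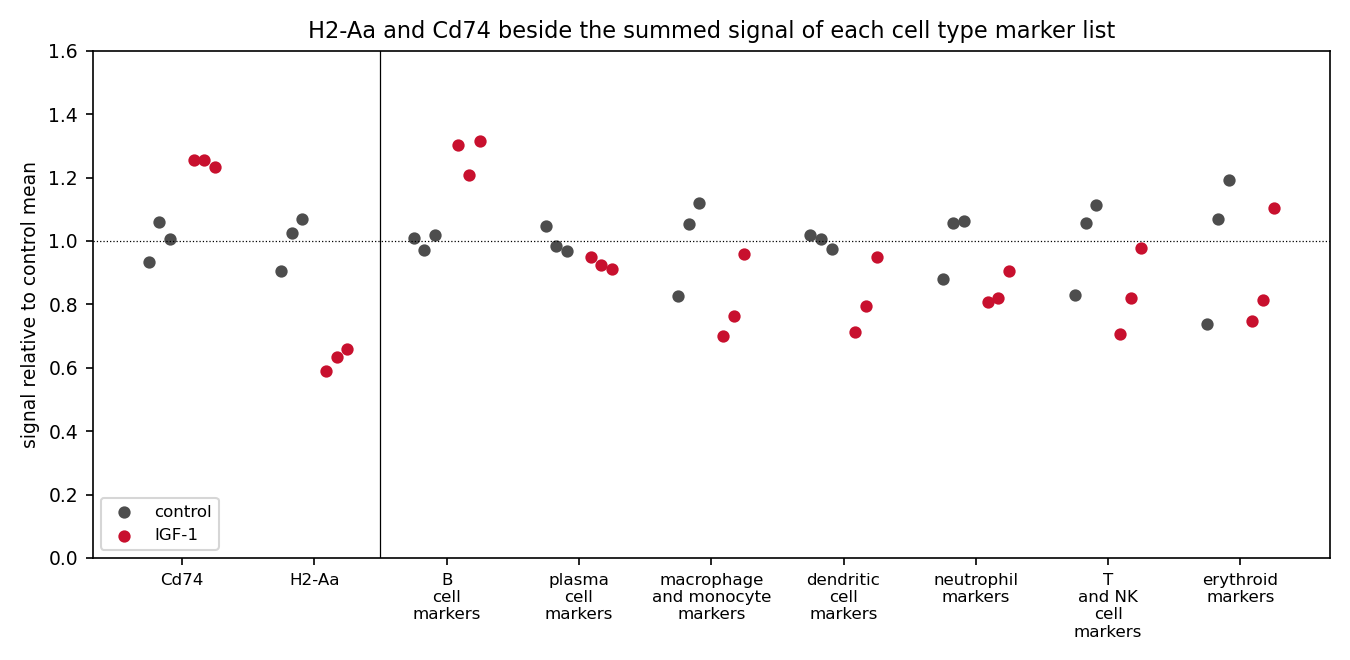
Cd74 and H2-Aa (brightest probe sets, left) beside the summed signal of 7 cell type marker lists (right), each divided by its mean over the control arrays (vertical axis, no unit). Points are single arrays (grey, control; red, IGF-1). IGF-1 arrays lie below all controls for H2-Aa and for the dendritic and plasma cell lists, above them for Cd74 and the B cell list, and overlap with them for the other 4 lists. Without Cd209a, Xbp1 and Cd37 respectively, the sums of the dendritic, plasma and B cell lists overlapped between groups. Each of these genes was picked as the one whose signal changed most, so leaving it out narrows the separation by design.

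To see which genes had the profile most like each member, log2 profiles over the 6 arrays were each centred on their own mean and compared with those of 6894 other genes by the root mean square difference (a small value means alike). For Cd74 the closest were Psmd14 (0.026), Stk40 (0.027) and Med19 (0.029), where the median gene was at 0.234. For H2-Aa the closest were Nfe2l2 (0.042), Chil1 (0.055) and Ankrd22 (0.059), with the median gene at 0.36. No other member was among these. Cd74 and H2-Aa were 0.484 apart. At that distance or closer lay 94.5% of genes seen from Cd74 and 83.5% seen from H2-Aa.

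Genes closest to H2-Eb1 were Sdad1 (0.034), Itga5 (0.034) and Actb (0.038), and those closest to H2-DMa were Iigp1 (0.040), Bcl3 (0.049) and Oas2 (0.053). H2-Ab1, with its 1 low control array, had Tmem63b (0.084), Kif22 (0.229) and Malat1 (0.243). Of the member pairs, H2-Eb1 and H2-DMa were most alike, at 0.151. At that distance or closer lay 3.16% of genes seen from H2-DMa, but 20.6% seen from H2-Eb1. These distances are over 6 arrays that share their scaling, and are given with no test.

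**Figure D5:**
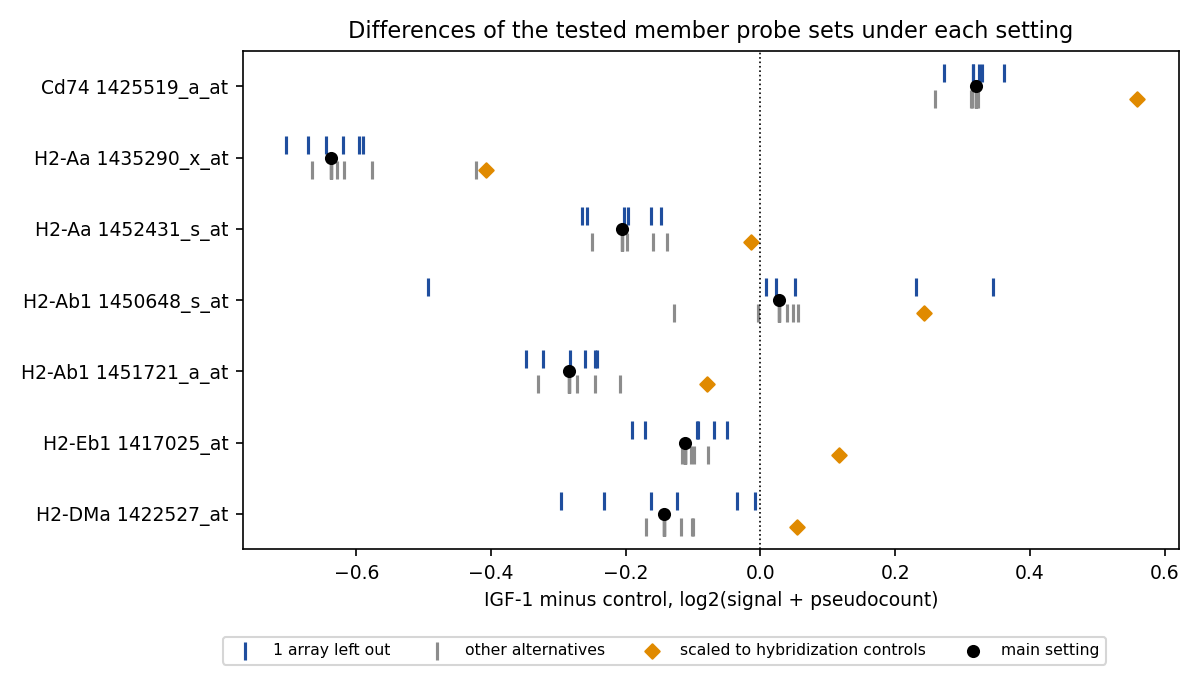
Differences of the 7 tested member probe sets (horizontal axis, IGF-1 minus control in log2(signal + pseudocount)) under the settings used here (black), with 1 array left out (blue ticks), under other alternatives (grey ticks) and scaled to the hybridization controls (orange). Cd74 lies above 0 and the brightest H2-Aa probe set below 0 under all settings shown, while H2-Ab1 1450648_s_at falls to -0.49 with control replicate 2 left out.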

How the data were processed

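RNA was labelled from oligo-dT primers, per the labels' protocols, which weights signals towards transcript 3′ ends. The deposited intensities are linear signals. Per the submitters' processing notes the authors used MAS5 and GCOS. Neither the versions of these programs nor the target of the scaling is given in the sources used here. The mean without the lowest and highest 2% was 150.1 in each array, so every difference is relative to a common total. Detection calls were not used here.

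Of 22690 probe sets, 64 controls were left out. 20380 had 1 symbol, 691 several and 1555 were unlisted; genes were named from the first alone. The RefSeq table of GRCm38.p6 held the gene identifiers of 20364 probe sets and changed 0 symbols. The fit used limma 3.58.1 in R 4.3.3 (lmFit, eBayes with an intensity trend, two-sided) over 11313 probe sets, with no covariate, and was tested on simulated data. The members, lists and tests were chosen with earlier results of these data known. The text names all members, each related gene past the threshold, otherwise the brightest 3 of a list, up to 4 called markers per cell type, and defining markers below the filter, and the 3 genes closest in profile to each tested member. Genes shown for their role (the cathepsins, the RFX subunits, Prdm1, the interferon gamma receptor chains, Cd44 and Cd79b) were added after their values were seen. Called second probe sets of listed genes, and some uncalled ones, were added in the same way. Alternatives covered the pseudocount, filter, normalization, array weights, eBayes settings, cross-hybridizing probe sets, combining of probe sets, a replicate block and each array left out. Tables and plots used Python 3.11.15, pandas 2.3.3 and matplotlib 3.10.9.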

Additional observations from a re-analysis of the deposited data

How the results depend on the processing

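H2-Aa (brightest probe set) kept its direction under all 18 alternatives and its call under 17, whereas Cd74 kept its direction under all 19 and its call under 12. Without the signal filter 946 probe sets were called (448 higher, 498 lower, against 772 and 937), and 1 member gene, with 0 members higher. Scaling to the hybridization controls moved the median of all genes from -0.01 to 0.21 and gave 2023 probe sets higher and 287 lower (87.6% of calls higher, against 45.2%), 1 member gene called with 0 lower, and 7 related genes called, 7 higher and 0 lower. Relative to that median, a step that largely undoes the scaling, H2-Eb1 was at -0.09 and H2-DMa at -0.16. Without the intensity trend 1 member gene was called (0 higher), as without cross-hybridizing probe sets (0 lower), where H2-Aa could not be evaluated. Leaving out 1 array gave 897 to 1451 calls (406 to 659 higher, 491 to 792 lower), 1 to 3 member genes called (0 to 1 higher, 1 to 2 lower) and 1 to 3 related genes lower. With the replicate number as a block, 7 related genes were called, 5 of them lower, and no member call changed. Deviations of same-numbered arrays from their group means correlated at 0.12, -0.03 and 0.13. Those of arrays with different numbers correlated at -0.15 to 0.03. Taken over all tested probe sets, these values cannot tell if the numbers mark pairs. The labels do not say that they do, so the main fit did not use them. H2-Ab1 1450648_s_at turned to -0.0036 with the pseudocount at the median, to -0.49 without control replicate 2 (-0.49 to 0.35 over arrays left out) and to -0.13 averaged over probe sets. H2-Eb1 turned to 0.12 and H2-DMa to 0.054 under the hybridization control scaling. The causes were not tested. Signals near background limit Ciita and the dim chains.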

Other observations

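Probe sets that the annotation assigns to several symbols also cover class II chains and were not counted above. Those of H2-DMb1 with H2-DMb2, and of H2-Ob with Gm20506, were all below the signal filter. The probe set shared by H2-Ob and Gm20506 (1422201_at) had signals of 33.9, 42.5 and 18.7 in the control arrays and 15.3, 38.0 and 5.71 in the IGF-1 arrays, which overlapped.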
